A study of Neurospora crassa with 22 samples.

Results

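The 56 mRNAs described here were recovered with the RNA-binding protein GUL-1 of *Neurospora crassa* both in standard medium and under cell wall stress. They were picked from 10592 annotated features by their values in RNA immunoprecipitation. In each treatment the lowest of the 3 GUL-1-GFP pull-downs had to lie above the highest of the 3 wild-type pull-downs, the ratio of the group means after adding 1 had to be 4 or more, and the GUL-1-GFP mean had to reach 20 CPM. CPM is the count scaled to the library total outside 5 rRNA features. The rule selected 81 features in standard medium and 106 with Nikkomycin Z, and the 56 are those selected in both. All 56 are protein-coding. Because these values chose the mRNAs, the contrast of the pull-downs is described below and not tested.

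The GUL-1-GFP strain, of mating type A, lacks the native gul-1 gene (hph::deltagul-1) and expresses a fusion of GUL-1 to sGFP from the ccg-1 promoter (Pccg1) at the his-3 locus. The wild type carries no tag and serves as the control for RNA that sticks to the GFP-binding beads. Mycelium of each strain was grown in sucrose minimal medium, with no further agent (standard) or with the chitin synthase inhibitor Nikkomycin Z for the last hour. RNA was taken from the beads (pull-down) and as total RNA (input), which gave 22 libraries in 8 groups of 3, or of 2 for the GUL-1-GFP inputs. The GUL-1-GFP strain is a single construct, so the level of gul-1 mRNA in it is set by a foreign promoter.

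GUL-1 is the relative of yeast Ssd1, a protein that binds mRNAs, many of them for cell wall proteins, and holds back their translation. In *N. crassa* GUL-1 is linked to the kinase COT-1, which is needed for hyphal elongation. Nikkomycin Z blocks chitin synthesis and so puts the growing wall under stress. Ssd1 in yeast recognises a short motif, and the study listed matches to it in *N. crassa* transcripts.

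The motif has 11 bases and is taken here in the 2 forms with complete matches in that list. A complete site was listed for 2 of the 56 mRNAs and a site with 1 mismatch for another 12. The 14 sites are printed because this is the one feature of the mRNAs that the rule did not use and that could be read from sequence. Capitals mark the mismatched base, and positions count from 1 at the 5′ end.
NCU01697: attcattcctt
ghx-2: attcattcctt
tah-3: agAcattcctt
gul-1: agAcattcctt
NCU05789: atAcattcctt
NCU00811: agCcattcctt
dpm: atCcattcctt
NCU06509: attcTttcctt
NCU01978: agtcaAtcctt
NCU03045: attcattcAtt
NCU00545: agtcattcGtt
NCU01477: attcattcGtt
NCU00265: agtcattcTtt
NCU08090: agtcattcTtt
The mismatch lay at position 3 in 5 mRNAs (T3A in tah-3, gul-1 and NCU05789, T3C in NCU00811 and dpm) and at position 9 in another 5. The remaining 2 mismatches were A5T in NCU06509 and T6A in NCU01978. No member carried a mismatch in the first 2 bases or in the last 2 bases. The positions in the listed sites of other genes were not compared here, so they are not read as a trait of the 56.

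A site was listed for 25.0% of the 56 mRNAs and for 3.72% of 9757 protein-coding features. Of the 363 protein-coding features with a site, 14 are among the 56, so most mRNAs with a site were not selected. Among the 2464 other protein-coding features with a GUL-1-GFP pull-down mean of 20 CPM or more in both treatments, 152 had one, or 6.17%. Across all 2520 features of that level, the share with a site was 5.25% (101 of 1923) where the lower of the 2 ratios was under 0.5 and 10.4% (37 of 355) between 0.5 and 1. It was 6.90% (8 of 116) between 1 and 2 and 7.58% (5 of 66) between 2 and 4. The share then stood at 26.7% (8 of 30) between 4 and 8, 23.1% (3 of 13) between 8 and 16, and 23.5% (4 of 17) at 16 or more. The top 2 bins hold fewer than 20 genes each. Within the 56 mRNAs, the median ratio with a site was 11.4 in standard medium and 16.2 with Nikkomycin Z, and without a site it was 13.0 and 10.6. A listed site is a match of letters to what the study describes as a 5′ UTR motif. The lengths of transcripts and 5′ UTRs, which also set how often a motif occurs, were not compared here.

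**Figure D1:**
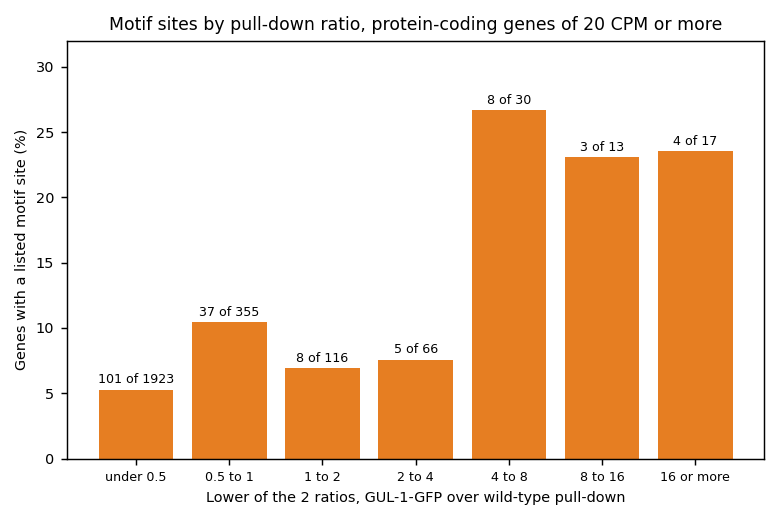
Share of protein-coding genes with a listed Ssd1-type motif site (vertical axis, %) by the lower of the 2 ratios of GUL-1-GFP over wild-type pull-down (horizontal axis), for the 2520 genes with a GUL-1-GFP mean of 20 CPM or more in both treatments. Numbers over the bars are genes with a site of genes in the bin; the 3 bins at a ratio of 4 or more stand at 23.1 to 26.7% and the others at 5.25 to 10.4%.

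The libraries differed in depth in a way that bears on every value. Counts outside the 5 rRNA features were 963336 to 5270159 in the GUL-1-GFP pull-downs, 282821 to 1260274 in the wild-type pull-downs and 49844 to 468189 in the inputs, leaving out wild-type input standard replicate 3, which held 153. The rRNA features took 78.2 to 95.3% of all counts in GUL-1-GFP pull-downs and 95.6 to 99.9% elsewhere. The most members departed from the other replicates in 2 libraries, and the share over all features was not counted. GUL-1-GFP standard replicate 1 had 11 of the 56 mRNAs at over 2 times, and 12 at under 0.5 times, of both other replicates, and wild-type standard pull-down replicate 2 had 16 at over 2 times both others. Leaving out the first gave 57 selected mRNAs, 53 of them among the 56, and leaving out the second gave 68, which included all 56. The study's methods speak of biological replicates, but neither they nor the labels tie the libraries to separate cultures, so tests measure the spread between these libraries, which may be technical.

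The 56 mRNAs made up a large part of what was recovered from the GUL-1-GFP strain. The share held by the 56 mRNAs was 43.4, 56.4 and 54.9% in the 3 standard pull-downs (51.6% ± 7.14, SD, n = 3). It was 63.2, 56.8 and 62.4% with Nikkomycin Z (60.8% ± 3.52, SD, n = 3). In the wild-type pull-downs the same mRNAs held 1.98, 3.35 and 1.37% in standard medium and 2.54, 2.65 and 2.40% with Nikkomycin Z. Those levels are close to the inputs, where the share was 2.18 to 2.53% in the GUL-1-GFP strain and 1.45 to 2.27% in the wild type. The concentration was in few transcripts, since the 4 most abundant members held 39.4 to 60.8% of all member counts in standard medium and 61.3 to 66.4% with Nikkomycin Z, and the 12 most abundant held 79.4 to 86.5% over both. Counts are not divided by transcript length here, so these are shares of reads outside rRNA and not of molecules.

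**Figure D2:**
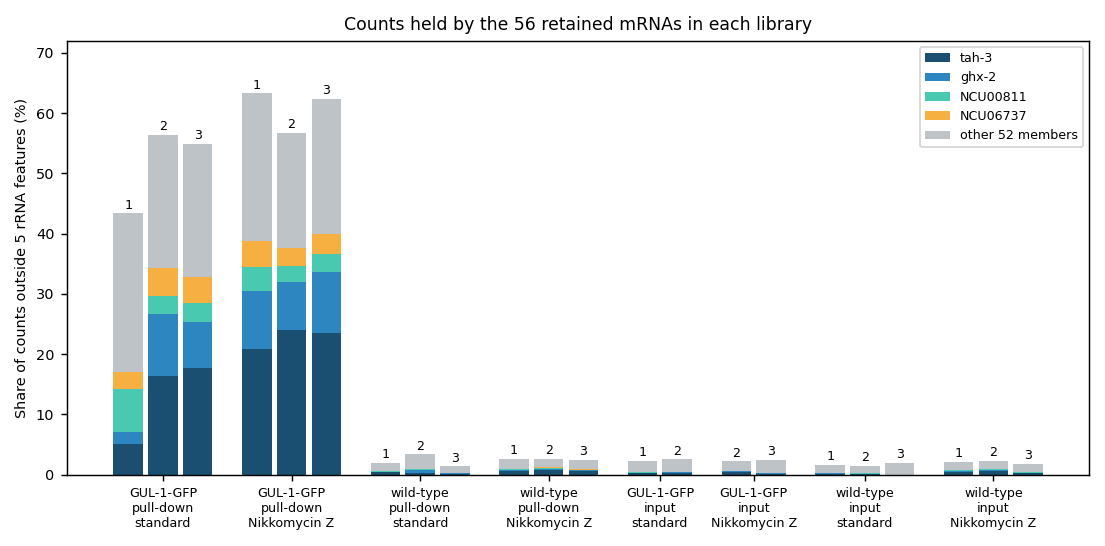
Share of the counts outside 5 rRNA features (vertical axis, %) held by the 56 mRNAs in each of the 22 libraries, grouped by strain, fraction and treatment, with the replicate number over each bar. The 6 GUL-1-GFP pull-downs stand at 43.4 to 63.2% and the other 16 libraries at 1.37 to 3.35%.

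The largest single contribution came from tah-3 (NCU03686), a gene symbol from RefSeq whose product the study's tables name as an oxidase assembly protein. Its GUL-1-GFP pull-down CPM was 51385, 163980 and 176545 in standard medium and 208357, 240205 and 234848 with Nikkomycin Z. The wild-type pull-downs gave 3769, 1989 and 1585 (standard) and 5793, 7383 and 5767 (Nikkomycin Z). The lowest GUL-1-GFP value, replicate 1 in standard medium, was still 13.6 times the highest wild-type value of that treatment, and the ratio of means was 53.3 in standard medium and 36.1 with Nikkomycin Z. In GUL-1-GFP inputs tah-3 stood at 1906 and 2439 in standard medium and 4104 and 989.7 with Nikkomycin Z, so its mean in the pull-down was 60.1 and 89.5 times that of the input.

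Among mRNAs for proteins of the cell wall, ghx-2 (NCU05404, an endoglucanase by its product name) was next in abundance. Its standard GUL-1-GFP pull-downs held 19320, 102748 and 76422 CPM and those with Nikkomycin Z 96395, 79113 and 101865 CPM. The wild-type pull-downs held 1202, 5102 and 943 CPM (standard) and 1858, 2199 and 1471 CPM (Nikkomycin Z). The groups did not overlap, and the ratio was 27.4 in standard medium and 50.1 with Nikkomycin Z. The library with the lowest GUL-1-GFP value was again standard replicate 1, and the highest wild-type value was in standard replicate 2.

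NCU02668, named a cell wall synthesis protein, held 10568, 30688 and 35912 CPM in standard and 35402, 29876 and 35239 CPM in Nikkomycin Z pull-downs of GUL-1-GFP. The wild type held 689, 2608 and 915 CPM (standard) and 892, 729 and 1043 CPM (Nikkomycin Z), giving ratios of 18.3 and 37.7. The non-anchored cell wall protein mRNA ncw-2 was at 29199, 16752 and 16501 CPM (standard) and 19410, 15632 and 19323 CPM (Nikkomycin Z) in GUL-1-GFP. Its wild-type values were 1375, 2228 and 383 (standard) and 1136, 1235 and 1745 CPM (Nikkomycin Z), and its ratios 15.7 and 13.2. Unlike tah-3 and ghx-2, ncw-2 was highest in standard replicate 1 of the GUL-1-GFP strain.

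By words in their product names, 8 of the 56 mRNAs fell in the cell wall group, which also took in gul-1 itself. The share of all features caught by the same words was not counted, so the 8 are not read as an excess. Placement follows the words alone, and gh61-9 entered by its product name although its symbol is of the same family as gh61-3, described below. The others were NCU05974 (a cell wall glucanosyltransferase, ratios 8.30 and 11.3), gh61-9 (listed as an endoglucanase, 12.5 and 63.9), NCU07974 (endoglucanase B, 5.43 and 8.74) and dpm. The last encodes dolichol-phosphate mannosyltransferase, which supplies mannose for protein glycosylation and GPI anchors, and had ratios of 5.97 and 6.06. Outside the word search, the anchored cell wall protein mRNA acw-7 (9.15 and 15.8) and that of a secreted glucosidase, NCU05789 (24.7 and 4.44), were also selected. The gene gh61-3, of the family of cellulose-active lytic polysaccharide monooxygenases, was the member of lowest level at 20.3, 23.9 and 40.5 CPM (standard) and 20.9, 22.1 and 17.9 CPM (Nikkomycin Z). It had no count in any of the 16 other libraries, so against a floor of 3 counts per wild-type pull-down it was higher in GUL-1-GFP by 4.44-fold or more in standard medium and by 3.14-fold or more with the inhibitor.

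Of a list of 11 genes for wall synthesis and remodelling (glucan and chitin synthases, the gel glucanosyltransferases and others), 1 was among the 56, ghx-2. In standard medium 3 of the 11 had all GUL-1-GFP pull-downs above the highest wild-type value, and 4 did with Nikkomycin Z. These include ghx-2, for which the rule fixed it. Genes lying wholly below the wild type were not counted. Over all features with any count in those libraries, the same held for 2.13% of 8404 and 4.70% of 8303. NCU06781 came closest to selection, with ratios of 3.14 and 7.06, and gel-3 stood at 1.91 and 1.67. None of 10 MAP kinase pathway genes was selected. The 1 gene among them whose GUL-1-GFP pull-downs all stood above the wild type was mik-1, the kinase at the head of the cell wall integrity cascade, with Nikkomycin Z (ratio 3.47) and not in standard medium (1.27). The mRNA of adv-1 stood on the other side, at a mean of 168 CPM in GUL-1-GFP against 1715 CPM in wild-type pull-downs with Nikkomycin Z (ratio 0.098). The mRNA of cot-1 was not selected, with ratios of 0.36 and 0.33. On this scale the 2520 features of 20 CPM or more had median log2 ratios of -1.48 to -0.92 by replicate. A ratio below 1 is thus common and does not by itself mark loss from the pull-down. By its own analysis the study reported cot-1, mek-1, mak-1, pp-1, os-4 and os-5 as associated with GUL-1 under Nikkomycin Z. It reported mik-1, so, mek-2, mak-2, fks-1 and rho-1 in both conditions, and ags-1, the gel mRNAs and chs-1 in at least 1. It detected no interaction with adv-1. Its calls rest on other cut-offs of fold change and significance, with reference to inputs and untagged samples, so they are not set against this rule. The lists were fitted to what the study discusses, so they are not an independent selection.

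**Figure D3:**
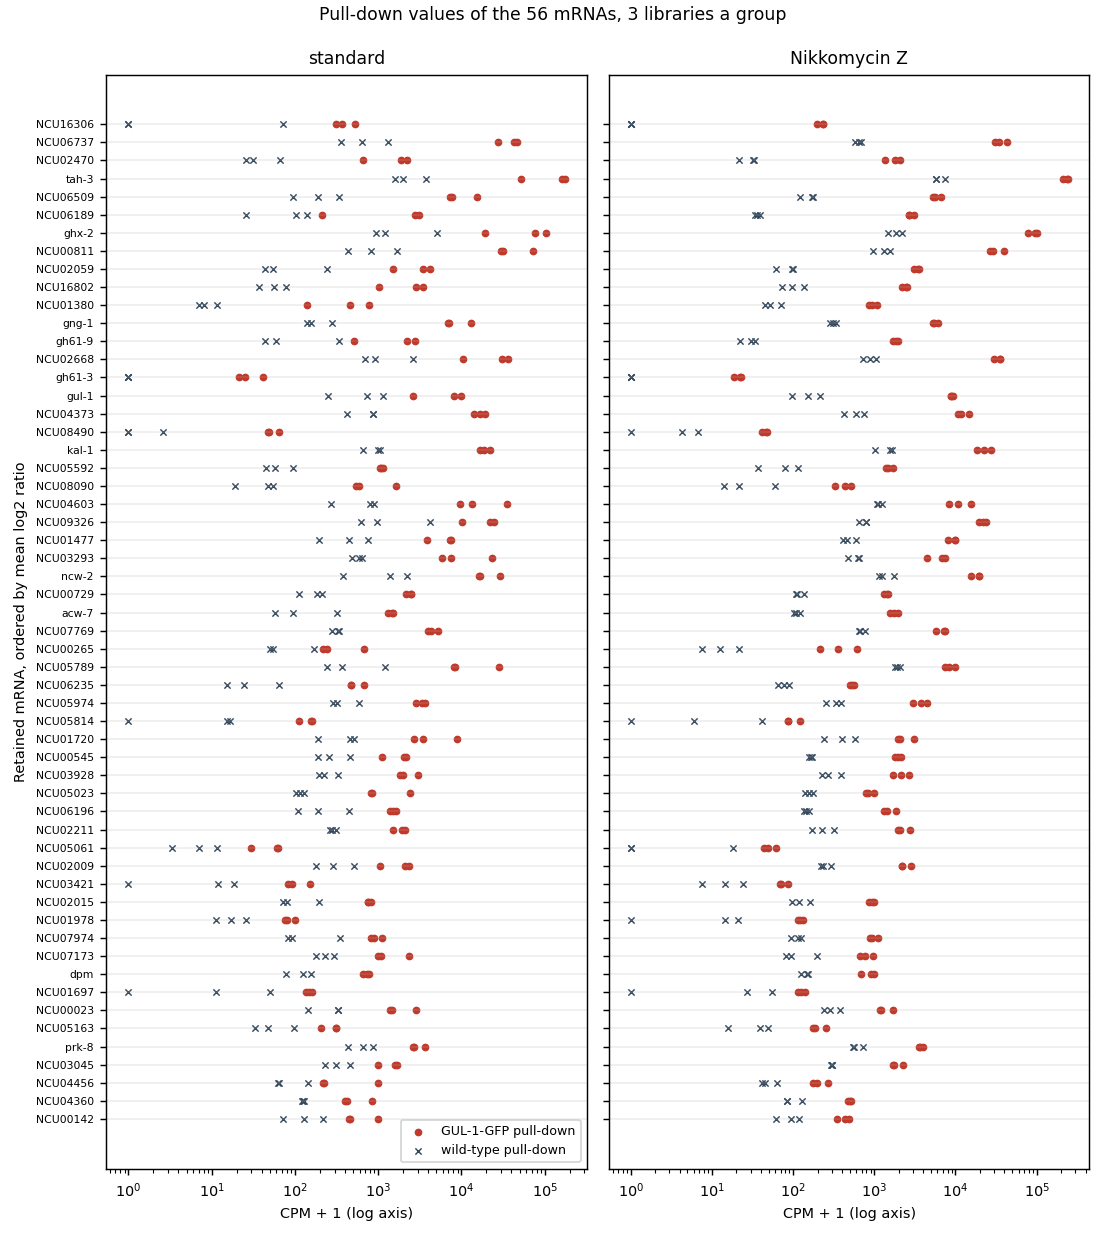
CPM + 1 (horizontal, log axis) of each of the 56 mRNAs (rows, ordered by mean log2 ratio) in the 3 GUL-1-GFP (red circles) and 3 wild-type (dark crosses) pull-downs of each treatment. No wild-type cross lies at or above the GUL-1-GFP circles of its row, and the gap between the groups is narrowest for NCU00265 in standard medium at 1.27-fold.

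Several members outside the cell wall were picked by product name after their values were seen. The homeobox factor mRNA kal-1 stood at 16800, 21826 and 18851 CPM in standard medium and 27520, 18361 and 22148 CPM with Nikkomycin Z, against 1004, 1060 and 658 (standard) and 1544, 1642 and 1015 CPM (Nikkomycin Z) in the wild type. The lowest GUL-1-GFP value was more than 10 times the highest wild-type value in each treatment, and the ratios were 21.1 and 16.2. The G protein gamma subunit mRNA gng-1 stood at 13141, 7034 and 6967 CPM (standard) and 6146, 5383 and 5358 CPM (Nikkomycin Z), against 279, 156 and 139 (standard) and 280.1, 308 and 334 CPM (Nikkomycin Z). Gamma subunits bind the beta subunit and relay signals from receptors at the membrane. Its ratios were 47.0 and 18.3. Also picked in this way were prk-8 (a serine/threonine kinase, 4.59 and 6.13), NCU07173 (the small GTPase ARF6, which acts in membrane traffic, 6.22 and 6.43) and NCU02015 (a palmitoyltransferase related to yeast Erf2, which modifies Ras, 6.71 and 7.40). A C2H2 zinc finger protein, NCU03421, and a ubiquitin-conjugating enzyme, NCU05592, had ratios of 10.3 and 4.89, and of 16.7 and 19.7.

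The mRNAs of an enzyme of haem synthesis and of a protease were among the 12 with the highest ratios. The mRNA of 5-aminolevulinate synthase, the first enzyme of haem synthesis (NCU06189), stood at 210.2, 3134 and 2768 CPM (standard) and 2707, 2675 and 3127 CPM (Nikkomycin Z) in GUL-1-GFP, against 24.8, 102 and 138 (standard) and 38.1, 34.9 and 32.9 CPM (Nikkomycin Z). Standard replicate 1 was more than 10 times lower than the other 5 GUL-1-GFP values, and its gap to the highest wild-type value was 1.52-fold. Ratios were 22.9 and 78.2. The aspartic protease mRNA NCU02059, named endothiapepsin, stood at 1501, 4167 and 3459 CPM (standard) and 3453, 3063 and 3597 CPM (Nikkomycin Z), against 42.4, 242 and 54.0 (standard) and 99.1, 61.0 and 95.4 CPM (Nikkomycin Z), with ratios of 26.8 and 39.1. The ferric reductase mRNAs NCU00023 and NCU02009 (FreB) had ratios of 7.12 and 4.50, and of 5.53 and 9.65.

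Most of the set has no assigned role. Of the 53 members with a product name in the study's tables, 30 are hypothetical or uncharacterized proteins, and these include several of the most abundant. The share of such names over all features was not counted, so the 30 are not read as an excess. NCU00811 held 72140, 29608 and 31852 CPM (standard) and 39789, 26608 and 29057 CPM (Nikkomycin Z) in GUL-1-GFP, against 817, 1690 and 439 (standard) and 1330, 1557 and 954 CPM (Nikkomycin Z). NCU06737 held 27912, 46607 and 42482 CPM (standard) and 43201, 30771 and 34094 CPM (Nikkomycin Z), against 647, 1318 and 355 (standard) and 686, 654 and 579 CPM (Nikkomycin Z). Its ratios of 50.4 and 56.2 were high in both treatments, and it had the largest excess of pull-down over input of the members that could be measured there. NCU06509 (48.2 and 37.6), NCU02470 (38.7 and 60.1), NCU16802 (42.6 and 23.3) and NCU01380 (51.6 and 17.1) were also among the 12 largest ratios. NCU09326, NCU04603, NCU04373 and NCU03293 were among the 12 most abundant, with ratios of 9.83 to 29.9 in standard medium and 9.97 to 28.8 with Nikkomycin Z. NCU01477, NCU00545 and NCU01978, hypothetical proteins with a listed motif site, had ratios of 13.3, 5.86 and 4.70 in standard medium and 19.0, 11.9 and 10.2 with Nikkomycin Z, and NCU01697, with a complete site, had 7.16 and 4.57.

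NCU16306 had the highest mean ratio of all, and its value rests on wild-type libraries with no counts. It stood at 532, 369.5 and 311 CPM in standard medium and 233, 199 and 229 CPM with Nikkomycin Z in GUL-1-GFP. The wild type gave 71.1 CPM in standard replicate 2 and no count in its other 5 pull-downs. Against a floor of 3 counts per wild-type library, it was at least 34.1-fold higher with Nikkomycin Z. Its mean input CPM in standard medium was 126 in GUL-1-GFP against 22.6 in the wild type, over inputs of usable depth. With Nikkomycin Z it was 40.8 against 2.14. These rest on 13 counts or fewer per library and did not pass edgeR's test (adjusted p = 0.26 and 0.147). Its pull-down exceeded its GUL-1-GFP input by 3.20-fold in standard medium. Retention and a higher level in the tagged strain were not told apart for it. In the RefSeq annotation of assembly NC12, NCU16306 overlaps and neighbours another of the 56, NCU08090 (ratios 23.0 and 13.4), and it was not established which of the pair some reads came from.

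Close to the limits of the rule, NCU00265, NCU04456 and NCU03045 (a cellular morphogenesis protein) entered with a lower ratio of 4.16, 4.27 and 4.27. NCU06003, NCU00309 and NCU05228 stayed out at 3.98, 3.96 and 3.92. On level, gh61-3 entered at 20.3 CPM and NCU09791 stayed out at 8.87. Because of overlapping replicates, prd-6 (NCU04242), the *N. crassa* relative of the nonsense-mediated decay helicase UPF1, stayed out at a lowest GUL-1-GFP value of 0.95 times the highest wild-type value, with a lower ratio of 6.10.

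Over the 56 mRNAs, the ratio ran from 4.16 to 53.3 with a median of 13.0 in standard medium and from 4.27 to 221 with a median of 11.3 under Nikkomycin Z, and 22 mRNAs reached 16 in each. Taken replicate by replicate number, the median log2 ratio was 3.83, 2.90 and 3.97 in standard medium and 3.60, 3.60 and 3.61 with Nikkomycin Z. Each of the 56 was above 0 in all 6, which the rule fixed beforehand for any pairing of the libraries. The 2520 features of 20 CPM or more had medians of -1.48 to -0.92 on the same scale. In the fit across all features, the median log2 fold change of the 56 was 5.13 in standard medium, where 2.59% of 7114 features passed an adjusted p of 0.05, and 5.45 with Nikkomycin Z, where 12.4% did. The median over all features was -0.07 and -0.13. These are the contrasts that chose the mRNAs, and nothing is read from the count of members past the threshold.

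The members were also high relative to the input of the same strain, which the rule did not use. The pull-down values are those that chose the mRNAs, so an excess was favoured beforehand and the folds are a description. In standard medium 31 members had more than 3 counts in each GUL-1-GFP input, and all 31 had a higher mean CPM in the pull-down, by 1.51-fold to 216-fold with a median of 13.9-fold. With Nikkomycin Z the same was seen for 29 of 29, by 1.26-fold to 189-fold with a median of 17.2-fold. The other protein-coding genes measured in this way had a median of 0.40-fold (1173 genes) and 0.32-fold (1487 genes), and 14.9 and 12.2% of them were above 1. CPM are shares of a total, so the rise of the members in the pull-down itself lowers the values of other genes. In the wild type, where no GUL-1-GFP is present, the members had a median of 1.15-fold in standard medium (31 members) and 1.16-fold with Nikkomycin Z (48 members) over the input. A further 15 members in standard medium and 16 with Nikkomycin Z had at most 3 counts in both inputs, so their folds of up to 63.8 and 54.6 are lower bounds.

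The smallest measured excess over the input was that of gul-1 (NCU01197) itself. Its GUL-1-GFP pull-down CPM was 2614, 8067 and 9794 in standard medium and 8763, 8843 and 9323 with Nikkomycin Z, and its GUL-1-GFP input CPM was 2046 and 6966 (standard) and 5924 and 8288 (Nikkomycin Z). Pull-down and input thus differed by 1.51-fold and 1.26-fold only. The wild type held 251, 1150 and 732 (standard) and 213, 95.9 and 153 CPM (Nikkomycin Z) in its pull-downs, and 151, 604 and 0 (standard) and 109.8, 100.4 and 47.4 CPM (Nikkomycin Z) in its inputs, of which the third standard library held only 153 counts in all. In edgeR's quasi-likelihood test gul-1 was higher in the GUL-1-GFP than in the wild-type inputs by a log2 fold change of 4.08 (SE 0.84, adjusted p = 0.0215) in standard medium and 6.02 (SE 0.85, adjusted p = 0.000391) with Nikkomycin Z. The standard call was lost without any 1 of GUL-1-GFP input replicate 1, GUL-1-GFP input replicate 2 and wild-type input replicate 1 (adjusted p = 0.0503, 0.138 and 0.067), and with those 5 libraries fitted alone (adjusted p = 1). For gul-1, retention by its own protein and the level of the construct cannot be told apart in the contrast of the strains.

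The inputs were compared to see whether other members were already more abundant in the tagged strain. In standard medium 3 of the 56 passed the test, beside 2.11% of all 7114 features (0.0843% higher and 2.02% lower). They were gul-1, NCU03293 (log2 fold change 2.36, SE 0.64, adjusted p = 0.0483) and, in the lower direction, NCU03928. NCU03293 stood at 3932 and 2111 CPM in GUL-1-GFP inputs and 772, 694 and 0 CPM in the wild type, the 0 being from the library with 153 counts. Its pull-down exceeded its input by 4.01-fold in standard medium. The call on NCU03293 was lost when any 1 of the 5 inputs was left out (adjusted p = 0.0532 to 0.172). NCU03928 had no count in either GUL-1-GFP input against 221, 241 and 0 CPM in the wild type, at least a 4.85-fold difference over the 2 wild-type inputs with usable depth (adjusted p = 0.0282), and that call too was lost without wild-type replicate 1 or either GUL-1-GFP input (adjusted p = 0.0556 to 0.138). The median log2 fold change of the 56 was 0.15, beside -0.50 over all features, and without wild-type replicate 1 it was 0.61 beside 0.

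With Nikkomycin Z, 1 member was higher in the GUL-1-GFP inputs (gul-1) and 6 were lower, beside 1.24 and 18.8% of all features, and the median log2 fold change of the 56 was -0.73 beside -3.20 over all features. The secreted glucosidase mRNA NCU05789 stood at 245 and 278 CPM in the GUL-1-GFP and 1784, 1713 and 1544 CPM in the wild-type inputs (log2 fold change -3.02, SE 0.83, adjusted p = 0.0157). NCU06509 stood at 0 and 92.8 CPM and 270.2, 222 and 257 CPM (log2 fold change -2.87, SE 0.93, adjusted p = 0.0312). Both were thus lower in the inputs and higher in the pull-downs of the tagged strain. The other 4, NCU00729, NCU02015, NCU00142 and NCU04456, had no count in either GUL-1-GFP input, which puts them at least 3.26-fold, 1.84-fold, 1.81-fold and 1.36-fold below the wild-type mean. All 6 lower calls were lost when either GUL-1-GFP input was left out, which left 1 library in the group, although every one of the 6 log2 fold changes stayed below 0. Without replicate 3 the fit called 2 other members lower, NCU00023 (a ferric reductase, adjusted p = 0.0322) and NCU03928 (adjusted p = 0.033), which had no count in the remaining library and 10 in replicate 3. These genes were chosen after their values were seen. In standard inputs the 56 without gul-1 held 2.03 and 1.84% of counts in GUL-1-GFP. The wild type held 1.57 and 1.39%, and 1.96% in the library with 153 counts, which gives no level. With Nikkomycin Z the shares were 1.59 and 1.55% against 1.82 to 2.26%. These differences in share were not tested.

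**Figure D4:**
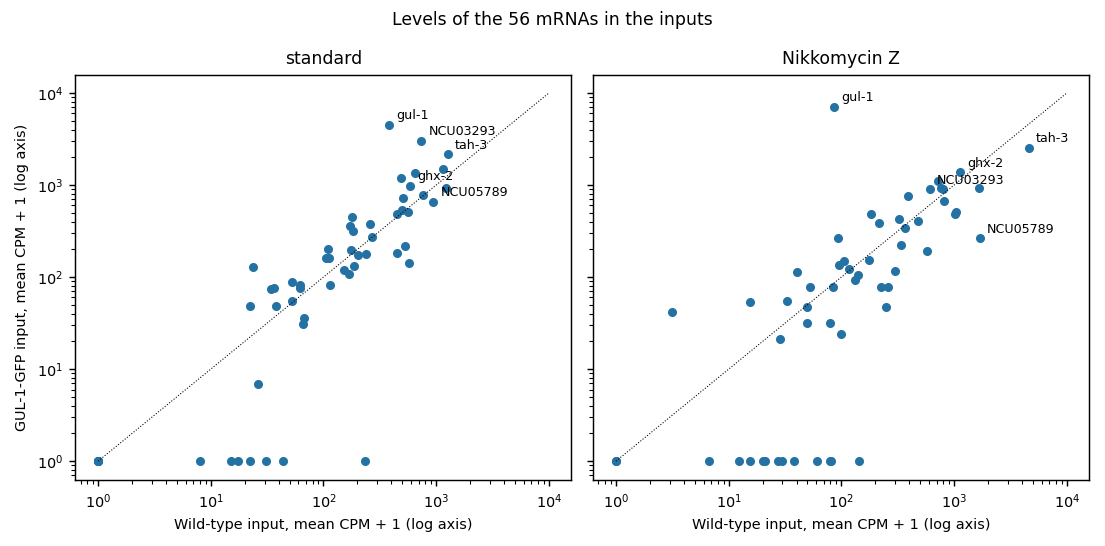
Mean CPM + 1 of the 56 mRNAs in the wild-type inputs (horizontal, log axis) and the GUL-1-GFP inputs (vertical, log axis) in both treatments, with the line of equality dotted. gul-1 lies at 4506 against 377 CPM in standard medium and 7106 against 85.8 CPM with Nikkomycin Z, and the wild-type standard mean leaves out the library with 153 counts.

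The treatment was compared within the GUL-1-GFP pull-downs to see whether Nikkomycin Z changed how much of each mRNA was recovered. These are libraries the rule used, and a member had to be high in both treatments, so mRNAs that differed strongly between treatments were left out beforehand. The values are thus a description. No member passed the test, and 0% of all 7114 features did in edgeR. At an unadjusted p under 0.05 there were 301 features and 1 member, NCU01380, and DESeq2 also called 0 (278 of 8756 features and 6 of the 56 at an unadjusted p under 0.05). NCU01380, a hypothetical protein, stood at 137, 783 and 461 CPM in standard medium and 1079, 928 and 851 CPM with Nikkomycin Z (log2 fold change 1.49, SE 0.67, adjusted p = 1). For tah-3 the log2 fold change was 1.22 (SE 0.69, adjusted p = 1) and for ghx-2 0.92 (SE 0.69, adjusted p = 1), and in both genes standard replicate 1 was the low value. The median log2 fold change of the 56 was 0.49 with 45 above 0, and the direction depended on the scaling: with the library totals of the rule it was -0.01 with 26 above 0. Without GUL-1-GFP standard replicate 1 it was 0.26 with 40 above 0, and without Nikkomycin Z replicate 1 it was 0.30 with 37. The scaling by the totals of the rule moved the median of all features from -0.09 to -0.68, and relative to it the member median was 0.58 and 0.66.

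Whether the excess over the wild type differed between treatments was fitted as the interaction of strain and treatment. The rule used the same 12 pull-downs and asked for a ratio of at least 4 in each treatment, so an mRNA retained in 1 treatment alone could not be a member, and the counts say nothing of how often the excess differs. None of the 56 passed, beside 0.0281% of all features, and 6 had an unadjusted p under 0.05, beside 711 of 7114 features. DESeq2 called none of the 56 either, with 6 at an unadjusted p under 0.05, beside 727 of 8756 features. The smallest p was that of NCU00265, with 242, 683 and 214 CPM in GUL-1-GFP against 53.0, 169 and 49.99 CPM in wild-type pull-downs in standard medium, and 211, 359.7 and 604 CPM against 11.4, 20.3 and 6.58 CPM with Nikkomycin Z (log2 difference 3.28, SE 1.002, adjusted p = 0.284). Its ratio was 4.16 and 28.5. For gul-1 the ratio was 9.59 and 57.9 (log2 difference 2.96, SE 0.96, adjusted p = 0.307), where the wild-type pull-downs and not those of GUL-1-GFP differed most between treatments. For gh61-9 the log2 difference was 2.75 (SE 1.03, adjusted p = 0.367). NCU05789 went the other way, from 24.7 to 4.44 (log2 difference -1.98, SE 0.90, adjusted p = 0.45), with wild-type pull-downs of 1206, 366 and 241 CPM in standard medium and 1820, 2051 and 1887 CPM under Nikkomycin Z. With leave-one-out fits the count of members called was 0 throughout, and a miss of the threshold in 3 libraries per group does not show that the 2 treatments act alike.

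**Figure D5:**
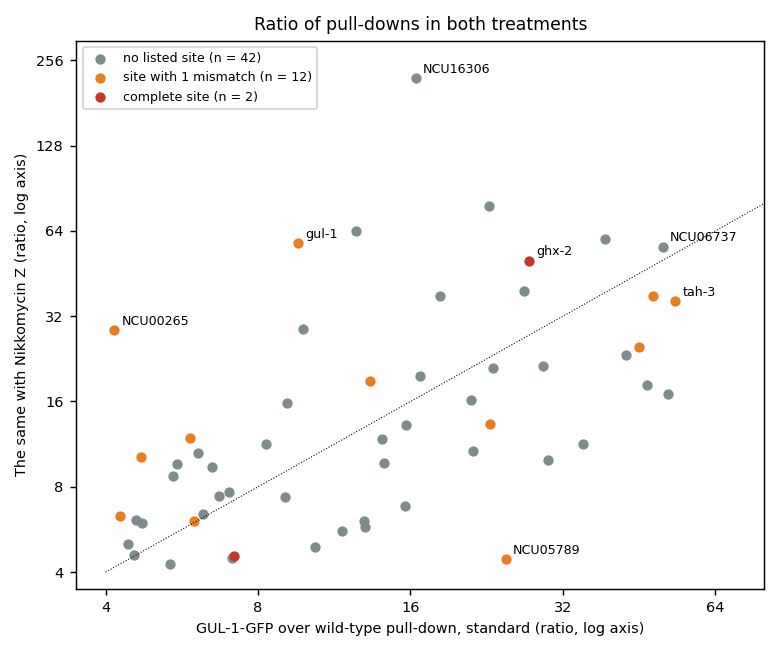
Ratio of GUL-1-GFP over wild-type pull-down means, each after adding 1 CPM, in standard medium (horizontal, log axis) and with Nikkomycin Z (vertical, log axis) for the 56 mRNAs, coloured by listed motif site, with the line of equality dotted. NCU16306, gul-1 and NCU00265 lie above the line at 221, 57.9 and 28.5 with Nikkomycin Z, and NCU05789 lies below it at 4.44.

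The abundance of the mRNAs in the untreated and treated wild type was compared through its inputs. No member passed the test, beside 0.998% of all features in edgeR, and 10 of the 56 had an unadjusted p under 0.05, beside 1223 of 7114 features. The nearest was tah-3, with input CPM of 1407, 1117 and 0 in standard medium and 4950, 6752 and 2079 with Nikkomycin Z (log2 fold change 2.56, SE 0.75, adjusted p = 0.0794). The 3 treated libraries were all above the 2 untreated ones of usable depth. The third untreated library held 153 counts, where 3 counts equal 19608 CPM, so its 0 gives no level. DESeq2 called 1 member, tah-3 (adjusted p = 0.0105), and without wild-type standard input replicate 1 edgeR called 7, beside 829 of 7110 features. The GUL-1-GFP inputs did not show such a separation for tah-3, at 1906 and 2439 (standard) and 4104 and 989.7 CPM (Nikkomycin Z). The median log2 fold change of the 56 was 0.60, beside 0.55 over all features. Without wild-type standard input replicate 1 these medians were 1.41 and 4.47, and with the totals of the rule 0.03 and 0.12.

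Replicates varied more in standard medium than with Nikkomycin Z. The coefficient of variation of GUL-1-GFP pull-down CPM over the 56 had a median of 0.37 in standard medium and 0.13 with Nikkomycin Z, with ranges of 0.04 to 0.94 and 0.03 to 0.51. Standard replicate 1 stood apart most, as described above. In that library 11 members exceeded 2 times both other replicates, among them NCU00811, NCU04603, NCU05789 and NCU03293. For 6 of the 11, including NCU05789 and the ARF6 mRNA NCU07173, replicate 1 was also the highest of the 3 wild-type standard pull-downs. A further 12 members, with tah-3, ghx-2, gul-1 and NCU06189 among them, were at under 0.5 times both other replicates. With Nikkomycin Z no GUL-1-GFP library had a member outside those limits.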

How the data were processed

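RNA immunoprecipitation and input libraries of *N. crassa* were analysed from the deposited table of raw counts per gene, made by the authors and not normalized. The study's methods name Tophat and HTSeq, and the submitters' processing notes name CASAVA 1.8.2, HISAT2 2.1.0 and StringTie 1.3.3b, so the counter is not settled here. The kit marks strand, but whether counting used it, and the genome build, are not given in the sources used here. Low even counts were over-represented in 4 of the inputs (60.6 to 68.7% of counts from 2 to 21, against 39.6 to 52.3% in the other libraries with over 1000 counts outside rRNA), so intervals and p-values treat as independent what may be counted in pairs. Floors of 3 counts cover counting error only.

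Libraries were grouped by the labels, and 2 libraries titled as pull-downs but given as total RNA were taken as inputs. edgeR 4.0.16 in R 4.3.3 fitted all 8 groups in one quasi-likelihood model (TMM scaling, filterByExpr with a count minimum of 10, 7114 features including all 56 members) with Benjamini-Hochberg adjustment at 0.05; it was tested on simulated data. DESeq2 1.42.0, TMMwsp scaling, library totals, no filter, the libraries of a comparison alone, a replicate block and leave-one-out were alternatives. The members and lists were chosen with earlier results of these data known. Named mRNAs are the 12 largest ratios, the 12 most abundant, those on the lists, with a listed motif site, near a limit of the rule or passing a test, and others named for their product were added after their values were seen. RefSeq (NC12) gave symbols and neighbours and matched 10590 of the IDs. Transcript length, GC content, UTRs and protein sequence were not analysed here.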

Additional observations from a re-analysis of the deposited data

How the results depend on the processing

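The selected set depended on the scaling: it held 163 mRNAs (50 of the 56) with totals that include rRNA, 93 (45 of the 56) with TMM sizes, 110 at a ratio of 2 and 30 at a ratio of 8. Without 1 pull-down it held 53 to 68. The member median of the pull-down contrast with the totals of the rule was 3.68 (standard) and 3.53 (Nikkomycin Z), in DESeq2 it was 5.60 for the latter, and without 1 library it was 4.89 to 5.65 and 5.28 to 5.67. Of members called between inputs, standard medium gave 0 of 31 tested with those libraries alone (0 of 1363 features) and 0 to 3 without 1 library. With Nikkomycin Z there were 11 in DESeq2, 14 of 46 tested with those libraries alone (2046 of 4595 features) and 1 to 7 without 1 library. Between treatments in wild-type inputs, DESeq2 called 1 and leave-one-out 0 to 7. The share with a motif site was 3.72% over protein-coding features and 6.59% over those of 20 CPM or more, members included. The cause of these shifts was not tested. No direction reversed in a member followed through the alternatives. Over all features, calls ran from 139 to 1205 and from 906 to 3710 in the standard and Nikkomycin Z pull-down contrasts, from 0 to 310 and 1060 to 2046 between inputs, from 21 to 276 in wild-type inputs and from 0 to 69 for the treatment difference, beside 184, 884, 150, 1425, 71 and 2. Leaving out 1 library gave 94 to 199 and 385 to 476 features in the pull-down contrasts, 0 to 569 and 86 to 1167 between inputs, 0 to 829 in wild-type inputs and 0 to 40 for the treatment difference.

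The replicate numbers were not taken as pairs in the main fit. Same-numbered libraries correlated at 0.09 to 0.66 (mean 0.43) in the standard pull-downs and at -0.05 to 0.07 with Nikkomycin Z. Differently numbered ones correlated at -0.70 to 0.52 (mean -0.20) and at -0.12 to 0.11. In the standard inputs the means were 0.27 for the same and -0.14 for different numbers. Group means were subtracted first, which pushes the mean for different numbers to the opposite sign, so it is no separate observation. By the means for the same numbers, pairing in standard medium remains possible. With a replicate block, 2 members were called between standard inputs and 7 with Nikkomycin Z, and 0 in the 3 other tested contrasts. In the GUL-1-GFP inputs 3 counts equal 35.2 to 60.2 CPM.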
